A study of Penicillium oxalicum with 18 samples.

Results

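The comparison described here is that of a Penicillium oxalicum strain lacking nag3 with its wild type, strain 114-2, after growth on glucose. It covers 3 libraries of each genotype. A gene was kept if it reached 1 FPKM in 3 or more of these 6 libraries, as 7894 of the 9261 identifiers in the table did. FPKM is a fragment count scaled both to the length of the gene and to the size of the library. At the edge of that rule, 31 identifiers had a third-highest value from 1 to under 1.1 FPKM and were kept, and 38 had one from 0.9 to under 1 and were not.

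The nag3 deletion strain and the wild type were treated alike: a pre-culture of 24 h at 30 °C on 2% glucose came first, and the mycelium then spent a further 24 h in a second medium. Here that medium held 2% glucose. Other libraries of the series came from both genotypes on 1% bran with 1% microcrystalline cellulose (bran-cellulose) and on 2% N-acetylglucosamine (GlcNAc, from which chitin is built), with 3 libraries in each of 6 groups. The labels do not say whether replicates were separate cultures or how many independent deletion strains were used, and the spread that the p-values rest on may be technical.

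Glucose is the preferred carbon source of this fungus. In filamentous fungi the repressor CreA holds down genes for breaking down plant polymers while glucose lasts, and the activators ClrB and XlnR raise cellulase and xylanase genes when a plant substrate is present. BrlA starts the program that builds conidia, the asexual spores. The study's title ties Nag3 to development and to cellulolytic genes, and the glucose medium shows the strain where cellulase genes are not induced. The table gives locus tags (PDE_ numbers) and no names: the 13 names used below are recalled from published work on strain 114-2, and no other tag is given a name or a role.

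The 6 libraries had FPKM sums from 920824 to 1030658 and between 854 and 942 identifiers listed at 0. Across the genes kept, the Pearson correlation of log2(FPKM + 1) was 0.957 to 0.978 between deletion libraries, 0.948 to 0.975 between wild-type libraries and 0.821 to 0.903 between genotypes. Wild-type replicate 3 was the farthest from the deletion libraries (0.821 to 0.844) and wild-type replicate 1 the nearest (0.887 to 0.903). The median SD between replicates, on the log2 scale, was 0.188 in the deletion and 0.176 in the wild type. On bran-cellulose it was 0.101 in the deletion and 0.122 in the wild type, and on GlcNAc 0.176 and 0.119. The SE and p-values given below pool the spread over all 6 groups, so they do not measure the spread on glucose alone.

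The table does not say which tag is nag3. On glucose, 35 genes stayed under 1 FPKM in every deletion library while each wild-type library reached 5 FPKM, and 0 genes did so over all 18 libraries of the series. PDE_00970, picked here with its values known, was lower in the deletion in all 3 media, with log2 differences of -3.79 on glucose, -4.00 on bran-cellulose and -7.07 on GlcNAc. On glucose it had 2.11, 2.84 and 2.38 FPKM in the deletion libraries, against 44.8, 47.7 and 46.4 FPKM in the wild-type libraries. These deletion values are over 1 FPKM, so the tag is not among the 35 genes above. Of the 505 genes called lower on glucose, 5 were also called lower on bran-cellulose, this tag among them, beside 0.203% of all genes tested. Whether this tag is the deleted gene was not tested.

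On glucose the deletion strain had a changed level of 910 of the 7894 genes, and the falls were deeper than the rises. Of these genes, 405 rose (5.13%) and 505 fell (6.40%). A call needed an adjusted p under 0.05 in limma and a log2 difference of at least 1 on log2(FPKM + 1). Over all 8390 genes tested in the series, 4.91% were called higher and 6.14% lower in the deletion. The median log2 difference was 1.47 among the genes that rose and -1.69 among those that fell, beside 0.09 over all genes tested. Among the called genes, a difference of -2 or under was seen for 195 and one of at least 2 for 111. For 81 called genes it was -4 or under and for 24 at least 4. The extremes were -10.37 and 7.33.

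The call rests on these same 6 libraries, so how far the called genes separated the genotypes is a description. Of those that rose, 387 had every deletion library above every wild-type library, and 26.1% of all genes tested did so. Of those that fell, 481 had every deletion library below every wild-type library, beside 15.5% of all genes tested. Among the genes that rose 21 were listed at 0 in all 3 wild-type libraries, and among those that fell 25 were listed at 0 in all 3 deletion libraries. Without the condition on fold size, 1830 genes were higher and 1086 lower, beside 22% and 13.2% of all genes tested. The values were not rescaled: median-ratio scaling moved the median difference by -0.08 and gave 348 genes that rose and 547 that fell.

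**Figure D1:**
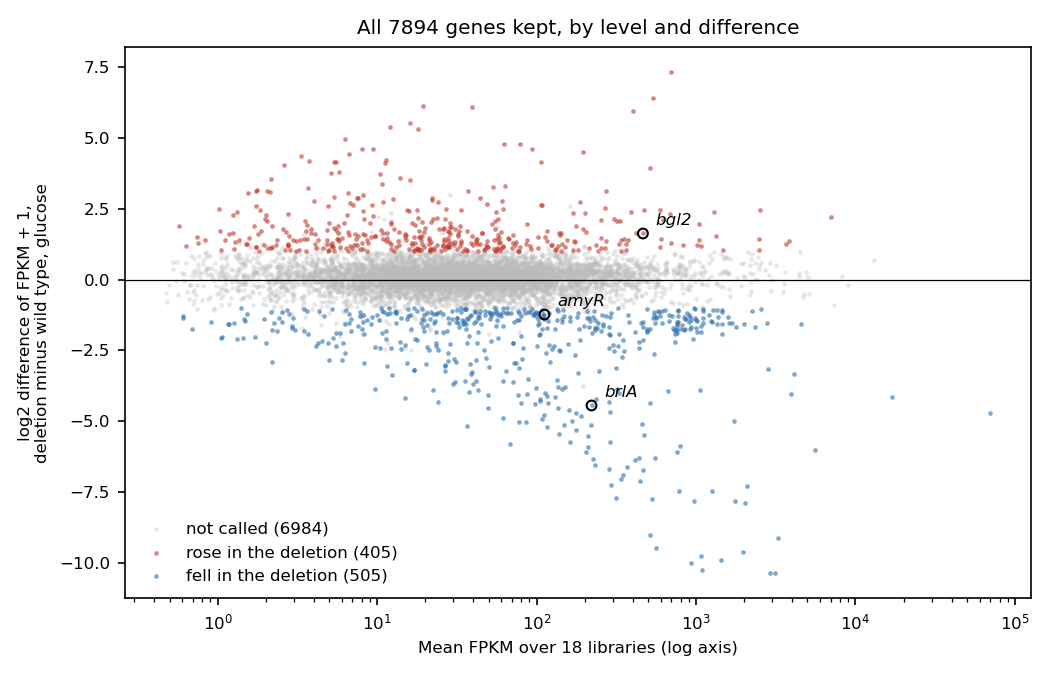
Each of the 7894 genes kept, by its mean FPKM over the 18 libraries of the series (horizontal, log axis) and its log2 difference between deletion and wild type on glucose (vertical), with the 405 genes that rose and the 505 that fell in colour. Differences under -7.5 are found among genes with a mean over 100 FPKM, and the 3 circled genes are those of the 13 named tags that were called.

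The genes that fell were often abundant ones. With the genes split into 5 classes of equal size by their mean over all 18 libraries, 15.1% of the highest class, with means of 104 FPKM or more, fell and 4.88% rose. In the lowest class, with means of 0.473 to 11.3 FPKM, 4.88% fell and 9.37% rose. The offset of 1 FPKM limits how far a low gene can move, so the classes are not equally open to a call. The mean that sets the classes also holds the glucose libraries that the calls rest on. The split by class is therefore partly tied to the direction of the call and is a description. Together the 505 genes that fell took 3.53%, 3.72% and 3.94% of the FPKM sum in the deletion libraries, against 17.0%, 19.8% and 25.04% in the wild-type libraries. The 405 genes that rose took 15.4%, 12.7% and 14.3% in the deletion libraries, against 4.73%, 4.44% and 3.46% in the wild-type libraries. The direction of these shares is set by the choice of the genes in the same libraries, and they are given as a description.

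Of the 13 named genes brlA had the log2 difference furthest from 0; it is the only gene of conidiation among them. brlA (PDE_00087), the central regulator of conidiation, had 1.72, 4.47 and 2.95 FPKM in the deletion libraries, against 46.0, 83.9 and 150 FPKM in the wild-type libraries. The groups did not overlap, and the wild-type libraries differed among themselves by 3.27-fold. brlA fell with a log2 difference of -4.44 (SE 0.34, adjusted p = 1.44e-07 in limma). The deletion strain had brlA at 253.2 ± 30.3 FPKM on bran-cellulose and at 279.4 ± 61.8 FPKM on GlcNAc (SD, n = 3 each), against 253.1 ± 44.1 and 444.9 ± 69.5 FPKM in the wild type in the same media, so its transcript was measured in the deletion strain outside glucose.

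The regulators of sugar-polymer genes did not move together. amyR (PDE_03964), the activator of amylase genes, had 81.4, 146.3 and 69.8 FPKM in the deletion libraries, against 201.8, 237.4 and 229.0 FPKM in the wild-type libraries. It fell with a log2 difference of -1.23 (SE 0.20, adjusted p = 0.000231 in limma), and every deletion library lay below every wild-type library. On GlcNAc amyR was called lower in the deletion as well (log2 difference -1.04, adjusted p = 0.000306 in limma). Its genotype differences on glucose and GlcNAc were -0.19 apart, which did not pass the test (adjusted p = 0.605 in limma). clrB (PDE_05999), the activator of cellulase genes, had 65.7, 77.8 and 59.3 FPKM in the deletion libraries, against 43.1, 43.6 and 27.7 FPKM in the wild-type libraries. Its deletion libraries were all the higher ones, but its log2 difference of 0.83 (SE 0.15, adjusted p = 0.000489 in limma) was under the fold threshold.

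The other 2 regulators overlapped between genotypes. creA (PDE_03168), the carbon catabolite repressor, had 502.7, 350.8 and 409.4 FPKM in the deletion libraries, against 468.2, 477.0 and 431.3 FPKM in the wild-type libraries. xlnR (PDE_07674), the activator of xylanase and cellulase genes, had 19.0, 22.7 and 16.4 FPKM in the deletion libraries, against 17.6, 20.8 and 22 FPKM in the wild-type libraries. The log2 differences were -0.14 (SE 0.17) for creA and -0.06 (SE 0.14) for xlnR, neither past the test (adjusted p = 0.573 and 0.772 in limma). The direction for xlnR turned without deletion replicate 3 (0.05) or wild-type replicate 3 (0.003).

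Among the enzyme genes, a β-glucosidase gene rose while the 4 cellulase genes were low in both genotypes. bgl2 (PDE_00579), which codes for a β-glucosidase, an enzyme that splits cellobiose to glucose, had 26.2, 33.2 and 20.1 FPKM in the deletion libraries, against 7.49, 7.28 and 8.37 FPKM in the wild-type libraries. It rose with a log2 difference of 1.63 (SE 0.15, adjusted p = 1.44e-06 in limma), and its lowest deletion library was above every wild-type library. bgl1 (PDE_02736), the other β-glucosidase gene, had 347.6, 353.2 and 350.4 FPKM in the deletion libraries, against 244.4, 288.2 and 198.3 FPKM in the wild-type libraries. Its log2 difference of 0.54 (SE 0.11, adjusted p = 0.00131 in limma) was under the fold threshold, with no overlap between genotypes.

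amy15A (PDE_01201), a gene for glucoamylase, which frees glucose from starch, had 74.0, 73.7 and 58.2 FPKM in the deletion libraries, against 98.5, 111.0 and 199.6 FPKM in the wild-type libraries. All deletion libraries were the lower ones, and the log2 difference of -0.92 (SE 0.22, adjusted p = 0.00502 in limma) missed the fold threshold. It passed that threshold without wild-type replicate 1 (-1.11) or 2 (-1.03) and after median-ratio scaling (-1.01).

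The genes for the cellobiohydrolases and endoglucanases, which cut cellulose chains from their ends and within, overlapped between genotypes. cel6A (PDE_07124), a cellobiohydrolase gene, had 13.9, 10.6 and 11.2 FPKM in the deletion libraries, against 11.1, 9.05 and 8.24 FPKM in the wild-type libraries. cel7A-2 (PDE_07945), also a cellobiohydrolase gene, had 3.52, 6.51 and 2.72 FPKM in the deletion libraries, against 2.90, 4.05 and 2.68 FPKM in the wild-type libraries. The endoglucanase genes cel7B (PDE_07929) and cel5B (PDE_09226) averaged 4.07 ± 0.515 and 7.26 ± 0.847 FPKM in the deletion, against 4.37 ± 0.569 and 7.18 ± 1.03 FPKM in the wild type (SD, n = 3 each). Their log2 differences ran from -0.08 (cel7B) to 0.30 (cel6A), and their adjusted p in limma from 0.173 to 0.933, so 0 of 4 were called or past the adjusted p alone. The sign of the differences of cel7A-2, cel7B and cel5B depended on the processing or on single libraries.

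xyn10A (PDE_08094), a xylanase gene, was also low, at 3.01 ± 0.442 FPKM in the deletion and 2.79 ± 0.0802 FPKM in the wild type (SD, n = 3 each), and was not called (log2 difference 0.07, SE 0.12, adjusted p = 0.674 in limma). Of the 13 named genes, all within the genes kept, 1 rose and 2 fell, and 6 passed the adjusted p at any size. Of all genes tested 4.91% rose, 6.14% fell and 35.2% passed the adjusted p at any size. Their median log2 difference was 0.02, beside 0.09 over all genes tested.

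For several of these genes the genotype difference on glucose was tested against that in another medium. Against bran-cellulose, 4 of the 13 had a higher difference on glucose and 2 a lower one, beside 4.17% and 5.38% of all genes tested. Against GlcNAc, 1 of the 13 had a higher difference on glucose and 5 a lower one, beside 11% and 15.3% of all genes tested. brlA and bgl2 differed from both media, brlA with the lower and bgl2 with the higher difference on glucose.

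**Figure D2:**
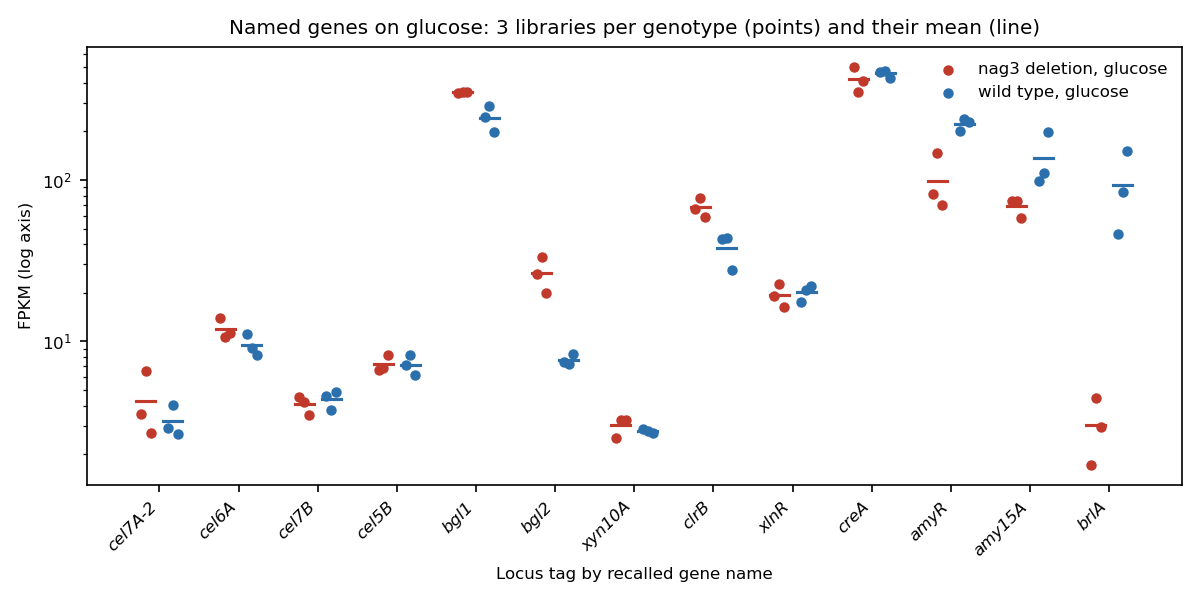
FPKM (vertical, log axis) of the 13 named genes in each of the 3 deletion libraries (left, red) and the 3 wild-type libraries (right, blue) on glucose, with the mean as a line. brlA lies between 1.72 and 4.47 in the deletion and between 46.0 and 150 in the wild type, while the 4 cellulase genes and xyn10A lie under 14 in all 6 libraries.

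The tags with the greatest differences in mean FPKM were picked among called genes whose genotypes did not overlap. None of them has a name here, as is so for nearly all tags. PDE_01252 and PDE_07933 gained most FPKM and PDE_09832 and PDE_07202 lost most. PDE_01252 had 25436, 9355 and 25291 FPKM in the deletion libraries, against 4950, 4404 and 2769 FPKM in the wild-type libraries, and rose with a log2 difference of 2.21 (SE 0.31, adjusted p = 6.86e-05 in limma). PDE_07933 had 18015, 7645 and 10469 FPKM in the deletion libraries, against 2068, 2132 and 1967 FPKM in the wild-type libraries, and rose with a log2 difference of 2.46 (SE 0.25, adjusted p = 3.15e-06 in limma). In both, deletion replicate 2 was the lowest of the deletion libraries and still above all wild-type libraries.

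PDE_09832 had 852, 1447 and 1127 FPKM in the deletion libraries, against 25580, 27562 and 36539 FPKM in the wild-type libraries, and fell with a log2 difference of -4.72 (SE 0.20, adjusted p = 1.43e-10 in limma). On glucose it held less transcript in both genotypes than in the other media, where every library of either genotype was at 66094 FPKM or more. PDE_07202 had 6304, 1878 and 5229 FPKM in the deletion libraries, against 11635, 13732 and 10131 FPKM in the wild-type libraries, and fell with a log2 difference of -1.57 (SE 0.34, adjusted p = 0.00244 in limma). Its call ended when only the 6 glucose libraries were fitted (adjusted p = 0.0897).

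Some of the called genes lay next to each other in tag number, while most had no neighbour called the same way. Of the called PDE_ tags that fell, 29.4% had the next or the previous tag number called the same way, and of all tested tags 9.53% had such a neighbour. Of those that rose the share was 24.9%, beside 7.67% of all tested tags. Runs of 3 or more consecutive tags called in the same direction numbered 24, of which 16 fell and 8 rose, and held 87 of the tags that fell and 32 of those that rose. Tag numbers were read as they stand, and genome positions were not used here. As background, genes of a fungal secondary metabolite pathway often sit side by side on the chromosome; what these tags encode is not given in the table.

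The longest run spanned the 16 tags from PDE_09227 to PDE_09242, and its summed level in the deletion was a small part of that in the wild type. Summed over the run, the deletion libraries held 161, 417 and 207 FPKM, against 41548, 44596 and 50809 FPKM in the wild-type libraries. All 16 tags separated the genotypes without overlap, with log2 differences from -10.37 to -1.31, a median of -9.31 and a highest adjusted p of 0.00133 in limma. The median tag of the run averaged 5.13 FPKM in the deletion and 2677 FPKM in the wild type.

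In the other media that run was low in the deletion on GlcNAc and not on bran-cellulose. On bran-cellulose the median tag averaged 1662 FPKM in the deletion and 1611 FPKM in the wild type, and 0 of the 16 tags were called, beside 0.191% of all genes tested that were higher and 0.203% that were lower. On GlcNAc it averaged 5.24 FPKM in the deletion and 1536 FPKM in the wild type, and all 16 fell, beside 10.7% of all genes tested. The tag just before the run is PDE_09226, given above as cel5B, which was not called on glucose (log2 difference 0.02). The tag just after it, PDE_09243, went the other way: it had 45.1, 56.8 and 36.3 FPKM in the deletion libraries on glucose and was listed at 0 in all 3 wild-type libraries (adjusted p = 1.63e-12 in limma). PDE_09243, picked with these values known, was listed at 0 in both genotypes on bran-cellulose, and on GlcNAc it averaged 50.3 ± 9.28 FPKM in the deletion (SD, n = 3) and was listed at 0 in the wild type. The tag after that, PDE_09244, also picked with its values known, fell on glucose, at 123.6 ± 27.3 FPKM in the deletion and 766.6 ± 71.5 FPKM in the wild type (SD, n = 3 each).

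**Figure D3:**
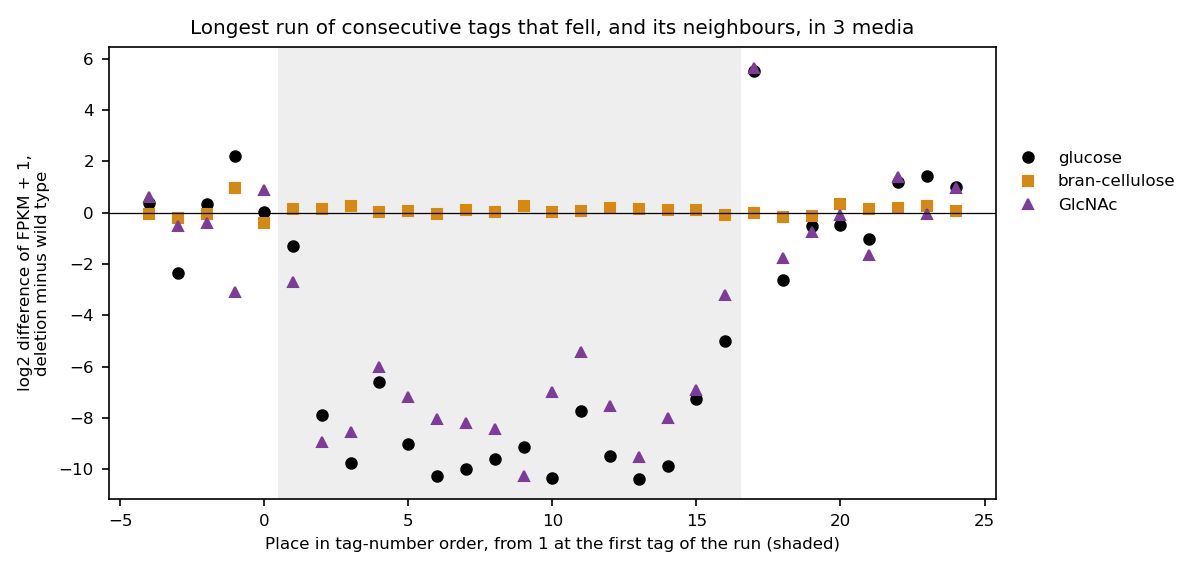
Log2 difference between deletion and wild type (vertical) of the tags in and around the longest run that fell, placed in tag-number order (horizontal, from 1 at PDE_09227), on glucose, bran-cellulose and GlcNAc. Within the shaded run of 16 tags the glucose and GlcNAc points lie far below 0 and the bran-cellulose points lie between -0.10 and 0.27, and the tag at place 17 is above 5 on glucose and GlcNAc.

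The runs next in length also fell, but with a wild type that varied. The 12 tags from PDE_00789 to PDE_00800 summed to 9.58, 7.71 and 8.16 FPKM in the deletion libraries, against 290, 908 and 1975 FPKM in the wild-type libraries. The 10 tags from PDE_00802 to PDE_00811 summed to 2.49, 4.79 and 4.72 FPKM in the deletion libraries, against 451, 1169 and 2092 FPKM in the wild-type libraries. Outside glucose both genotypes had more of these transcripts than the deletion had on glucose: the median tag of the first run averaged 205 FPKM in the deletion and 258 FPKM in the wild type on bran-cellulose, and 140 FPKM in the deletion and 449 FPKM in the wild type on GlcNAc. On bran-cellulose 0 tags of these 2 runs were called, as for nearly all genes tested, and on GlcNAc 11 of the 12 and 7 of the 10 fell, beside 10.7% of all genes tested.

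On glucose the same form recurred in the next 2 runs by length that fell. The 7 tags from PDE_09999 to PDE_10005 summed to 0.610, 0.930 and 1.61 FPKM in the deletion libraries, against 94.6, 267.8 and 524.9 FPKM in the wild-type libraries. The 6 tags from PDE_01064 to PDE_01069 summed to 4.53, 7.04 and 6.19 FPKM in the deletion libraries, against 217, 524 and 1035 FPKM in the wild-type libraries. On bran-cellulose 0 of these 13 tags were called, as for nearly all genes tested. On GlcNAc 1 of the 7 fell and 1 rose, and 4 of the 6 fell, beside 10.7% of all genes tested that fell and 16.7% that rose.

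In the 3 longest runs that rose, the deletion on glucose had the highest sums of the 6 groups. The 7 tags from PDE_04023 to PDE_04029 summed to 434, 546 and 459 FPKM in the deletion libraries on glucose, against 68.4, 60.6 and 41.5 FPKM in the wild-type libraries, with a median log2 difference of 3.14. On bran-cellulose 3 of these 7 tags fell in the deletion, beside 0.203% of all genes tested. The 5 tags from PDE_03921 to PDE_03925 summed to 4462, 3492 and 5613 FPKM in the deletion libraries, against 153, 121 and 71.2 FPKM in the wild-type libraries. The 5 tags from PDE_08904 to PDE_08908 summed to 6164, 2968 and 5531 FPKM in the deletion libraries, against 669, 447 and 278 FPKM in the wild-type libraries, and all 5 rose on GlcNAc as well, beside 16.7% of all genes tested.

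**Figure D4:**
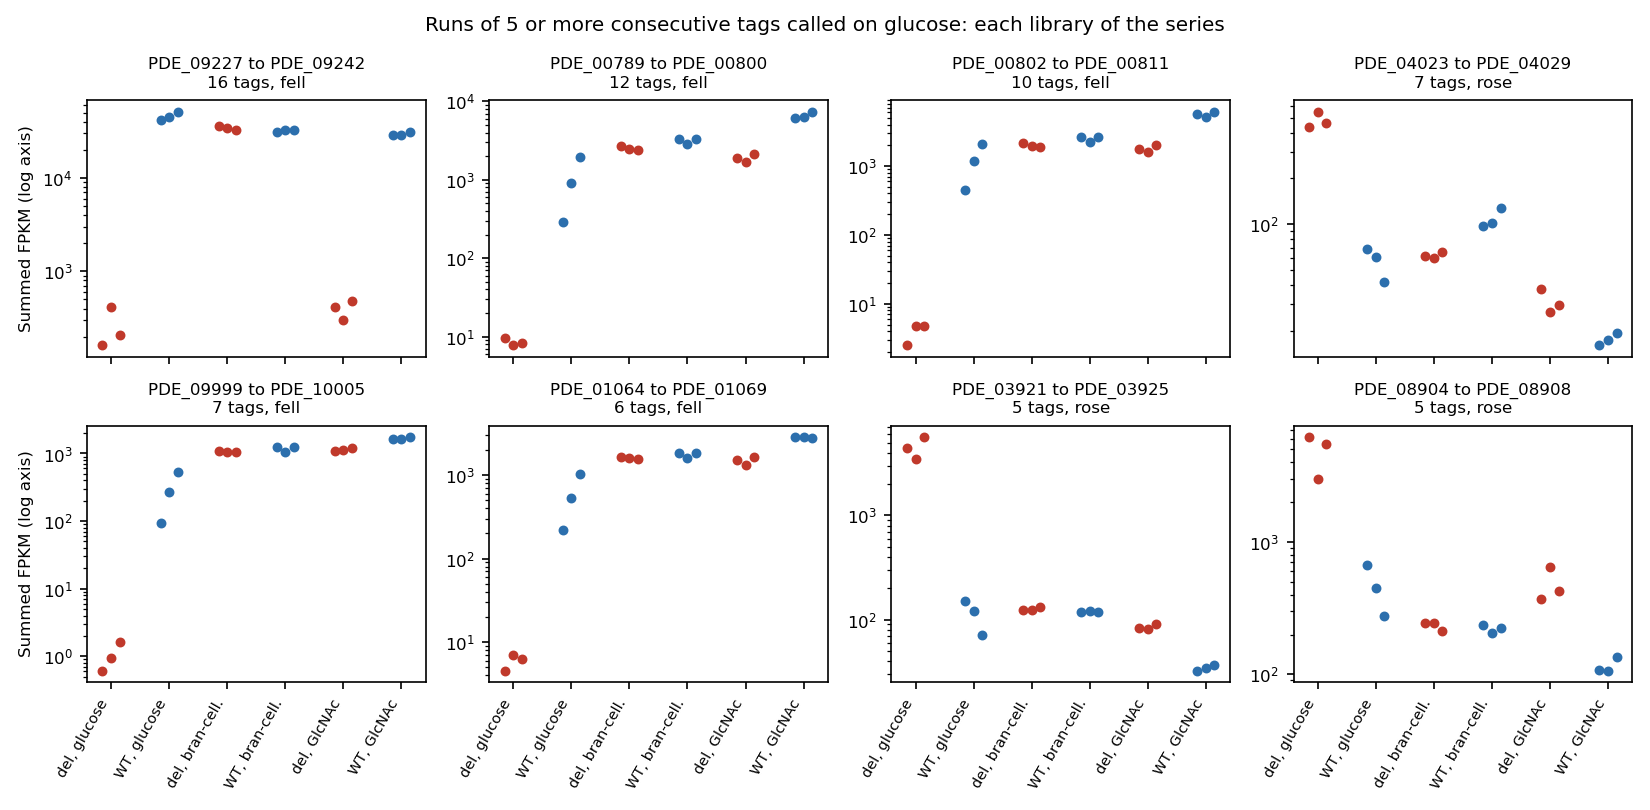
Summed FPKM (vertical, log axis) of the 8 runs with 5 or more consecutive tags, in each library of the 6 groups (deletion in red, to the left of the wild type in blue, in each medium). The 5 runs that fell are lowest in the deletion on glucose, except that the 16-tag run is about as low in the deletion on GlcNAc, and the 3 runs that rose are highest in the deletion on glucose.

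The wild-type glucose libraries differed among themselves in many of the genes that fell in the deletion. Among the 505 genes that fell, 335 (66.3%) had wild-type replicate 3 as the highest and replicate 1 as the lowest of the wild-type libraries, as brlA did, beside 28.2% of all genes kept. Of the 405 genes that rose, 181 (44.7%) had the opposite order, beside 23.2% of all genes kept. All 16 runs that fell had their wild-type sum highest in replicate 3 and lowest in replicate 1. The highest of these sums was from 1.22 times the lowest, for the 16-tag run, to 9.45 times, for the 3 tags from PDE_04105 to PDE_04107. It was 6.82 times for the 12-tag run. Without wild-type replicate 3, 362 genes rose and 417 fell, and without wild-type replicate 1, 444 rose and 541 fell. What set the wild-type libraries apart was not tested.

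The genes called on glucose were then followed on bran-cellulose and GlcNAc. The libraries of these media do not enter the difference on glucose, but they do enter the spread behind its p-values. The shares below are therefore not an independent check of the calls. On bran-cellulose, where 0.191% of all genes tested were higher and 0.203% lower in the deletion, 7 of the 405 genes that rose on glucose were higher and 5 were lower. Of the 505 genes that fell on glucose, 0 were higher and 5 lower on bran-cellulose. On GlcNAc, 126 of the 405 (31.1%) were higher in the deletion and 50 (12.3%) lower, beside 16.7% and 10.7% of all genes tested. Of the 505 that fell on glucose, 212 (42.0%) were lower on GlcNAc and 27 (5.35%) higher.

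Some of these genes also differed between the other media, while most were not called there. In the wild type, 150 of the 405 genes that rose (37.0%) were lower on GlcNAc than on bran-cellulose and 38 (9.38%) were higher, beside 12.2% and 6.53% of all genes tested. In the deletion the counts were 98 lower (24.2%) and 48 higher (11.9%), beside 11.4% and 8.75%. Of the 505 genes that fell, 98 (19.4%) were higher and 49 (9.70%) lower on GlcNAc than on bran-cellulose in the wild type, while in the deletion 43 (8.51%) were higher and 138 (27.3%) lower. These contrasts use no glucose library, but the estimate of a gene's spread is common to all of them.

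Set side by side, the genes that fell had their lowest medians in the deletion on glucose. Their median log2(FPKM + 1) was 3.14, 3.33 and 3.25 in the deletion libraries on glucose, against 5.31, 5.95 and 6.38 in the wild-type libraries. On bran-cellulose it was 6.41 to 6.55 in the deletion and 6.42 to 6.51 in the wild type, and on GlcNAc 5.75 to 5.83 in the deletion and 6.90 to 6.98 in the wild type. The genes that rose had medians of 5.61, 5.19 and 5.47 in the deletion on glucose, against 3.96, 3.92 and 3.45 in the wild type. In the other media they lay between 3.40 and 3.97 in the deletion and between 2.75 and 3.84 in the wild type. The glucose medians are set by the choice of the genes and are given as a description.

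**Figure D5:**
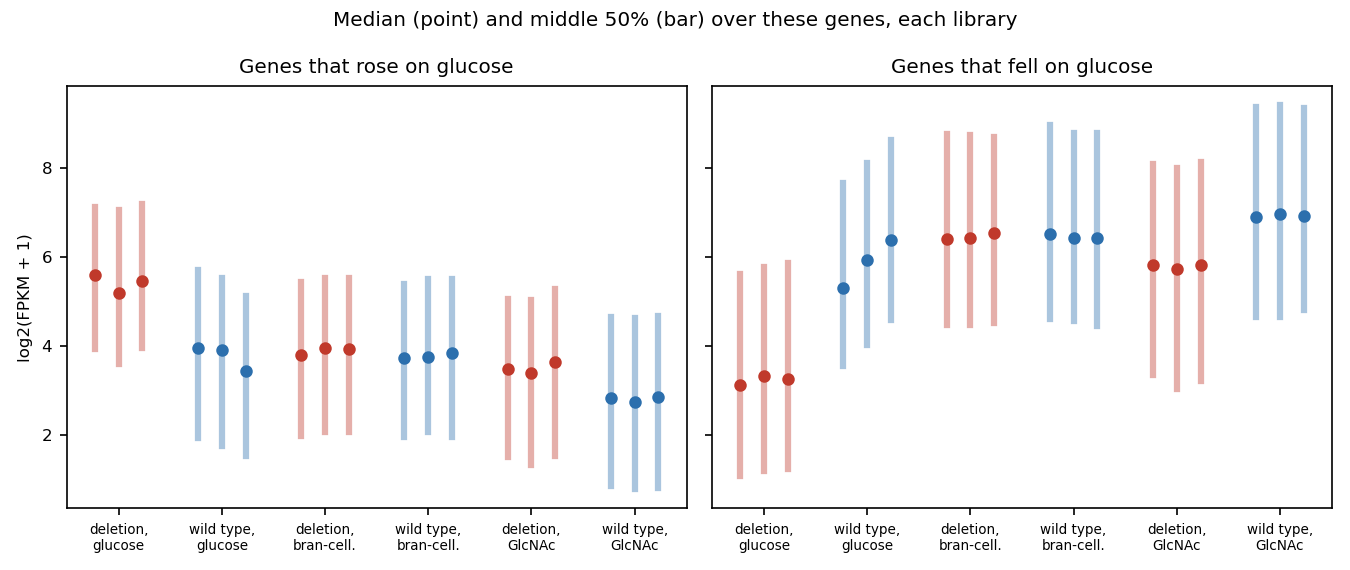
Median (point) and middle 50% (bar) of log2(FPKM + 1) over the 405 genes that rose (left) and the 505 that fell (right) on glucose, in each of the 18 libraries (deletion in red, wild type in blue). The genes that fell have medians of 3.14 to 3.33 in the deletion on glucose and of 5.31 or more in every other library shown.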

How the data were processed

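RNA of mycelium was profiled in 18 libraries. The authors deposited FPKM values, per the file headers, in 1 column for each library; the labels' protocols describe tag libraries cut with NlaIII and MmeI. No aligner, counting tool or genome build is named in the sources used here. Depth is unknown: of 2486 low values set against the lowest of their gene, 19.5% lay within 0.1 of a whole multiple, where an even spread gives 20%, so whole reads could not be recovered and count models were not used.

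FPKM was used without further scaling. limma 3.58.1 in R 4.3.3 was run, two-sided, on log2(FPKM + 1) over all 18 libraries with 1 mean for each group and an intensity trend, for the 8390 genes that reached 1 FPKM in 3 or more libraries. Benjamini-Hochberg adjustment ran over these 8390 genes. Besides the 910 called genes described, 7 genes called higher and 10 called lower did not have 1 FPKM in 3 glucose libraries and are not counted. Log2 differences understate the change of low genes.

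The genes, tags and lists were chosen with earlier results of these data known. Named genes are 13 tags, whose names come from published work as recalled, and the 2 genes that rose and the 2 that fell with the greatest difference in mean FPKM among called genes without overlap. The gene table at hand is of strain HP7-1 (assembly ASM172317v3) and matched 0 of the identifiers, so no sequence is shown. Alternatives changed the offset, the filter, the scaling, the weights, the libraries fitted and the replicates. Figures were drawn with matplotlib 3.10.9.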

Additional observations from a re-analysis of the deposited data

Results flagged for a closer look

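The difference between deletion and wild type itself differed between media for several of the named genes, by limma's test of the difference between differences (adjusted over 8390 genes, absolute log2 value of at least 1). For brlA the genotype difference was -4.44 on glucose, 0.01 on bran-cellulose and -0.68 on GlcNAc, so that glucose stood apart from bran-cellulose by -4.45 (adjusted p = 1.42e-05) and from GlcNAc by -3.76 (adjusted p = 1.40e-05). For bgl2 it was 1.63 on glucose, -0.12 on bran-cellulose and -0.02 on GlcNAc, which gave 1.75 (adjusted p = 5.44e-05) and 1.65 (adjusted p = 1.90e-05).

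Against bran-cellulose, the genotype difference on glucose was higher by 1.22 for cel6A, 1.15 for xyn10A and 1.03 for clrB, and lower by -1.09 for amyR. The difference on glucose was not called in cel6A, xyn10A and clrB. On bran-cellulose the genotype difference was -0.91 for cel6A, -1.07 for xyn10A and -0.20 for clrB, and of these only that of xyn10A was called. Against GlcNAc, the genotype difference on glucose was lower by -1.28 for cel7A-2, -1.03 for xlnR, -1.15 for creA and -2.79 for amy15A. None of these 4 was called on glucose; on GlcNAc the genotype difference was 1.54 for cel7A-2, 0.97 for xlnR and 1.01 for creA. amy15A had opposite signs in these media, at -0.92 on glucose and 1.87 on GlcNAc.

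Among the tags chosen by FPKM, PDE_09832 on glucose stood apart from bran-cellulose by -4.51 and from GlcNAc by -5.18. PDE_07202 stood apart from bran-cellulose by -2.05 (adjusted p = 0.00788). PDE_01252 and PDE_07933 stood apart from GlcNAc by 3.57 and 2.44. PDE_01252 was lower in the deletion on GlcNAc, at a log2 difference of -1.36. PDE_07933 was called higher in the deletion on bran-cellulose as well (log2 difference 1.83, adjusted p = 0.00125 in limma). Its genotype difference on glucose was higher than that on bran-cellulose by 0.62, which did not pass the test (adjusted p = 0.241 in limma). In alternatives added after the data were seen, clrB missed the threshold in 6 and was lowest with array weights that had not converged (0.80) and without wild-type replicate 3 (0.82). xlnR missed it in 5, among them without deletion replicate 3 (-0.92) and wild-type replicate 3 (-0.97). cel7A-2 (-0.76) and xyn10A (0.95) missed it with an offset of 5 FPKM, creA (-0.996) after median-ratio scaling, and amyR without deletion replicate 1 (-0.99) or 3 (-0.88).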

How the results depend on the processing

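The counts of 405 genes that rose and 505 that fell lay within 1.5 times those values under every alternative but 2: without the fold threshold they were 1830 and 1086, and with the replicate number as a block, in a fit of the 6 glucose libraries, they were 146 and 233. That fit without the block gave 310 and 373. Deviations of same-numbered libraries from their group mean correlated at 0.04, 0.04 and -0.11. Libraries did not correlate best with their own number throughout. With 3 libraries in a group these deviations balance around 0, so the correlations do not settle whether the replicate numbers pair the libraries. Leaving out 1 glucose library gave 362 to 477 genes that rose and 417 to 541 that fell. Of the 405 and the 505, 276 and 371 were called in all 6 of these fits. With an offset of 5 FPKM, 285 of the 405 and 391 of the 505 were still called. Over all fits but those without the fold threshold or with the block, 197 of the 405 (48.6%) and 285 of the 505 (56.4%) were called in every one. bgl2 (adjusted p = 0.0509), amyR (0.0760), PDE_01252 (0.106) and PDE_07933 (0.0541) missed the adjusted p only with the block, and PDE_07202 with the block (0.168) and in the fit of 6 libraries (0.0897).

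Differences near 0 changed sign. cel7A-2 was at -0.098 with array weights, and cel5B at -0.0612 after median-ratio scaling and at -0.0147 with array weights; the estimation of these weights stopped before it converged. With 1 library left out, cel7A-2 ranged from -0.0240 (deletion replicate 2 left out) to 0.483, cel7B from -0.170 to 0.000887 (deletion replicate 3), cel5B from -0.0746 (wild-type replicate 3; also below 0 without deletion replicate 3) to 0.107, and xlnR from -0.176 to 0.0485 (deletion replicate 3; also above 0 without wild-type replicate 3). The cause was not tested. Depth is unknown, so no limit of detection is given for genes listed at 0.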

Other observations

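The table also holds 35 XLOC_ loci, which have no PDE_ tag; 27 of them were among the genes kept. On glucose 3 of these rose and 1 fell, beside 4.91% and 6.14% of all genes tested, and all 4 are named here after their values were seen. XLOC_000468 had 13.2, 20.5 and 16.7 FPKM in the deletion libraries, against 7.85, 4.91 and 8.26 FPKM in the wild-type libraries. XLOC_001263 averaged 6.75 ± 0.580 FPKM in the deletion and 2.29 ± 0.506 FPKM in the wild type, and XLOC_003508 averaged 8.64 ± 1.41 and 3.13 ± 0.297 FPKM in the same order (SD, n = 3 each). XLOC_006001 had 32.7, 27.9 and 44.3 FPKM in the deletion libraries, against 74.5, 62.8 and 214.9 FPKM in the wild-type libraries, and passed the test narrowly (log2 difference -1.52, adjusted p = 0.0401 in limma).

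XLOC_000468 went the other way on GlcNAc, where it averaged 2.95 ± 0.660 FPKM in the deletion and 44.9 ± 5.26 FPKM in the wild type (SD, n = 3 each; log2 difference -3.54, adjusted p = 2.97e-09 in limma).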
